A study of Komagataella phaffii with 6 samples.

Results

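The genes described here are a set of 63 from Komagataella phaffii whose part of the read counts was lower when cells on methanol had no nitrogen source. They were chosen by their read counts, out of 5040 genes in the authors' count table (1.25%) and 2548 genes with at least 100 counts over all 6 libraries. A gene entered when its CPM (its counts scaled to a library total of 1000000) were lower in every library without nitrogen than in every library with it, and when the mean CPM without nitrogen was 0.6 or less of the mean with it. The fall itself was therefore what chose the genes, and its size is given as a description, with no test. The strain was wild-type X-33, a methylotrophic yeast formerly called Pichia pastoris. Cells were grown in 100 ml of glycerol medium (BMG) for 40 h, then moved into methanol medium for 18 h. The medium held ammonium sulfate (BMM+N) for the 3 control libraries and no nitrogen source (BMM-N) for the 3 starved libraries. All 6 libraries thus share the strain, the glycerol phase and the shift to methanol.

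Yeasts that run short of nitrogen are known, mainly from Saccharomyces cerevisiae, to slow ribosome production and the cell cycle, to open uptake and breakdown routes for poorer nitrogen sources, and to recycle their own proteins and organelles by autophagy. The TOR complex and the GATA factors of nitrogen catabolite repression are the best known regulators. Methanol-grown K. phaffii carries a large load of peroxisomal and cytosolic enzymes for methanol, which makes amino acid supply a matter of interest in this species. The table and the reference pair the 63 locus tags with no gene symbol and no product, so the genes are given by tag, position and structure, and no role is assigned to any of them. All 5040 tags and their start and end positions match the RefSeq annotation of assembly ASM2700v1, strain GS115, and all positions below are on that build.

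The libraries were shallow, as judged by the counts assigned to genes. They held 302395 to 435003 counts with nitrogen and 127303 to 395803 without, and the smallest was replicate 3 without nitrogen. The median member had 57, 42 and 44 counts in replicates 1, 2 and 3 with nitrogen. Without nitrogen it had 23 and 27 counts in replicates 1 and 2, and 8 in replicate 3, where 33 of the 63 members had fewer than 10. Low values in that library are therefore the least precise in the set. The labels do not say whether the replicates were separate cultures, so the spread between them may be technical. Counts give each gene's part of a library, so fewer transcripts of a gene per cell cannot be told apart from a larger total of other transcripts, nor from fewer cells that carry the transcript.

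Separation between the groups was more common than a low ratio. Of the 2548 genes with at least 100 counts, 285 (11.2%) were lower without nitrogen in every library, and 80 (3.14%) had a ratio of mean CPM of 0.6 or less. Both held for the 63 members, 2.47% of these genes. A further 222 genes were separated with a ratio above 0.6, and 17 had a ratio of 0.6 or less with groups that overlapped. The median ratio was 0.523 for the members, beside 0.999 for all 2548 genes.

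**Figure D1:**
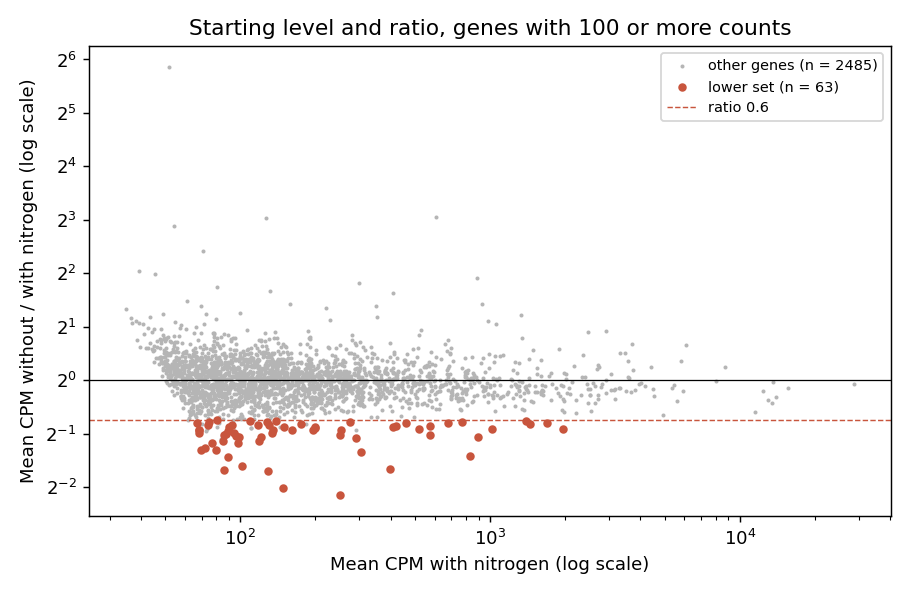
Mean CPM with nitrogen (horizontal, log scale) against the ratio of mean CPM without to with nitrogen (vertical, log scale) for the 2548 genes with at least 100 counts. The 63 members (red) lie at or below the dashed line at a ratio of 0.6 and span starting levels from 67.0 to 1966 CPM; the other genes are grey.

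Within the set most ratios lay near the upper limit. They ran from 0.227 to 0.595, with quartiles at 0.464 and 0.561. The ratio lay above 0.5 in 38 members, between 0.4 and 0.5 in 16, and at 0.4 or below in 9. In 9 members, each of the 3 libraries without nitrogen was at or below 0.5 of the mean with nitrogen. The distance between the groups was often small: the lowest value with nitrogen divided by the highest without had a median of 1.34, was under 1.1 in 6 members and at least 1.5 in 10. It exceeded 2 in 1 member, PAS_chr3_1071 (2.23).

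PAS_chr4_0065 had the lowest ratio, 0.227. It is a single coding exon of 1023 bp on the plus strand of chromosome 4, at 129794 to 130816. Its CPM with nitrogen were 211, 439.8 and 99.7 in replicates 1, 2 and 3, and 33.0, 43.0 and 94.3 without. The group with nitrogen was widely spread, and its replicate 3 lay barely above replicate 3 without nitrogen. The deepest mean fall of the set is thus also one of its least separated, and the fitted log2 fold change (edgeR) was -2.35 ± 0.28 (SE, n = 3 each), or -1.69 when the high control replicate 2 was left out. That SE is mostly pooled over all genes; with DESeq2 the value was -2.22 ± 0.750 (SE).

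PAS_chr4_0240 followed with a ratio of 0.247 and a clearer gap. This gene of 2121 bp lies on chromosome 4 at 486364 to 488484, on the minus strand. Its values were 149, 185 and 112 CPM with nitrogen and 59.4, 35.4 and 15.7 CPM without. The lowest value rests on 2 counts. Its log2 fold change was -1.85 ± 0.32 (SE, n = 3 each).

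PAS_chr1-4_0253 (chromosome 1, 1863884 to 1865527, minus strand, 1644 bp) had a ratio of 0.310. It stood at 106, 139 and 143 CPM with nitrogen and at 59.4, 53.1 and 7.86 CPM without. Replicate 3 without nitrogen, at 1 count, was far below the other two. Pooling the counts of each group, which gives that shallow library less weight, put the ratio at 0.382, with a 95% counting interval (exact, from the binomial) of 0.262 to 0.548. Counting intervals here cover counting error only, not the spread between replicates.

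PAS_chr1-1_0158 was the fifth by ratio, at 0.318, and began higher than the genes before it. It lies on the plus strand of chromosome 1 at 852641 to 853432 (792 bp). Its CPM were 267, 463 and 458 with nitrogen and 155, 136 and 86.4 without. Every starved library was well below the lowest control, and the pooled ratio was 0.356 (95% counting interval 0.286 to 0.440).

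PAS_chr3_1071 combined a large fall with a high level. It is a short gene of 651 bp on chromosome 3 (2064952 to 2065602, minus strand). Its libraries with nitrogen stood at 782, 847 and 857 CPM, and those without at 271, 351 and 306 CPM. Both groups were tight, with a spread (SD over mean) of 4.93% with nitrogen and 13.02% without, and the ratio was 0.374. Its log2 fold change was -1.41 ± 0.15 (SE, n = 3 each). It was the only gene among both the 8 lowest ratios and the 8 highest levels.

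The other members among the 8 lowest ratios had between 119 and 128 counts in all. PAS_chr1-3_0056 (chromosome 1, 105118 to 105501, 384 bp) went from 86.3 ± 30.5 to 27.1 ± 9.54 CPM (SD, n = 3 each). PAS_chr1-1_0284 (chromosome 1, 1099220 to 1100704, 1485 bp) went from 101 ± 36.7 to 33.5 ± 12.3 CPM. PAS_chr3_0179 (chromosome 3, 367451 to 368983, 1533 bp) went from 89.6 ± 16.2 to 33.1 ± 17.4 CPM. At these depths the pooled ratios, 0.324, 0.311 and 0.441, had upper 95% counting bounds of 0.511, 0.485 and 0.665. The ninth gene, PAS_chr4_0330 (chromosome 4, 676443 to 677771), was named after its values were seen, to complete the 9 at 0.4 or below. It went from 303 ± 21.6 to 120 ± 25.1 CPM, a ratio of 0.397.

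**Figure D2:**
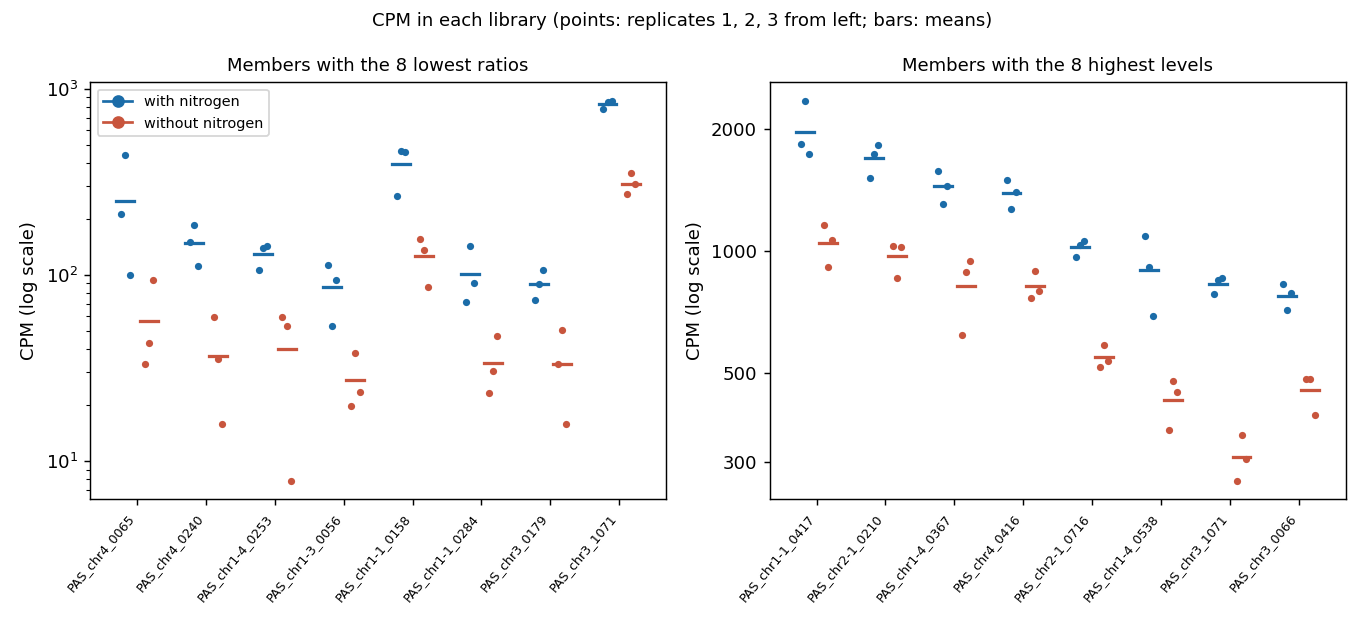
CPM (log scale) in each library with nitrogen (blue) and without (red) for the members with the 8 lowest ratios (left) and the 8 highest levels (right); points are replicates 1 to 3 from left to right and bars are means. In PAS_chr4_0065 the groups nearly touch, at 99.7 and 94.3 CPM, while in PAS_chr3_1071 they lie 2.23-fold apart.

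The members started near the level of the median gene. Mean CPM with nitrogen had a median of 134 in the set and 133 over the 2548 genes. It was under 100 in 23 members, between 100 and 500 in 28, and at least 500 in 12. The count minimum covers all 6 libraries, so a gene that falls without nitrogen needs more counts with it to pass. The lowest mean CPM with nitrogen was 67.0 in the set and 34.8 over the 2548 genes. The near-equal medians are thus shaped by the rule and are only a description. By CPM with nitrogen the highest member ranked 80 among all genes of the table. None of the genes with the highest CPM was thus in the set. Fragments wholly in a 3' untranslated region would not be counted, so CPM may not rank transcripts by abundance. Because the library kit reads each transcript once, close to its 3' end, CPM were not divided by length; divided by coding length, the order of the highest members changes, as given below.

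A large part of the lost counts came from a few abundant genes, most of them with ratios above 0.5. The 8 members with the highest level were also the 8 with the largest loss in CPM, and they made up 47.7% of the summed loss of 9689 CPM. Their ratios lay between 0.374 and 0.588. With nitrogen they held 49.6% of the set's summed mean CPM, so their part of the loss was near their part of the level. The 8 members with the lowest ratios made up 14.1% of that loss. PAS_chr3_1071, which is in both groups of 8, alone made up 5.36% of it.

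PAS_chr1-1_0417 had the highest level and the largest loss, 923 CPM, which was 9.52% of the sum. It is a gene of 837 bp on the plus strand of chromosome 1, at 1333228 to 1334064. Its libraries with nitrogen stood at 1829.9, 2338 and 1729 CPM, and those without at 1159, 909.5 and 1060.5 CPM. The lowest control was 1.49 times the highest starved library, and the pooled ratio of 0.527 had a 95% counting interval of 0.486 to 0.571.

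PAS_chr2-1_0210, a short gene of 447 bp (chromosome 2, 391953 to 392399, plus strand), came second by level. It had 1515, 1733 and 1819.8 CPM with nitrogen and 1027, 856 and 1021 CPM without. Per kilobase of coding length it had the highest level of the set (3779 CPM per kb with nitrogen), ahead of PAS_chr1-1_0417 (2349) and PAS_chr3_0066 (1367). Its ratio was 0.573.

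PAS_chr1-4_0367 (chromosome 1, 2083203 to 2084357, 1155 bp) had 1575, 1306 and 1443 CPM with nitrogen and 621, 887 and 943 CPM without. Replicate 1 without nitrogen was the lowest here and replicate 3 the highest. PAS_chr4_0416 (chromosome 4, 819647 to 820888, 1242 bp) had 1497, 1267 and 1399 CPM with nitrogen and 763, 892 and 793 CPM without. PAS_chr2-1_0716 (chromosome 2, 1359427 to 1361109, 1683 bp) had 966, 1035 and 1056 CPM with nitrogen and 515, 586 and 534 CPM without. In these last 2 genes all 3 libraries of a group lay close together, with a spread (SD over mean) of at most 8.32% in either group. Their ratios were 0.588 and 0.535.

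PAS_chr3_0066 (chromosome 3, 144270 to 144836, 567 bp) was the eighth by level. Its mean was 775 ± 56.2 CPM in the control libraries and 452 ± 51.7 in the starved ones (SD, n = 3 each), a ratio of 0.584. The sixth, PAS_chr1-4_0538, is described with its neighbours.

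The members' share of each library's counts was close to constant within a group. It was 2.04%, 2.04% and 1.97% in replicates 1, 2 and 3 with nitrogen, and 1.03%, 1.07% and 1.04% without. The exact 95% binomial intervals of single libraries were widest in replicate 3 without nitrogen, from 0.982% to 1.09%. Averaged over the 3 libraries of a group (n = 3, SD), the share was 2.01% ± 0.0407 with nitrogen, against 1.05% ± 0.0185 in starved cells. The shallow replicate 3 thus did not stand apart in the sum, although single members in it were noisy. The 8 highest members alone took 0.978% to 1.01% of the counts with nitrogen and 0.520% to 0.550% without, which were 49.6% and 51.5% of the set's summed mean CPM.

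**Figure D3:**
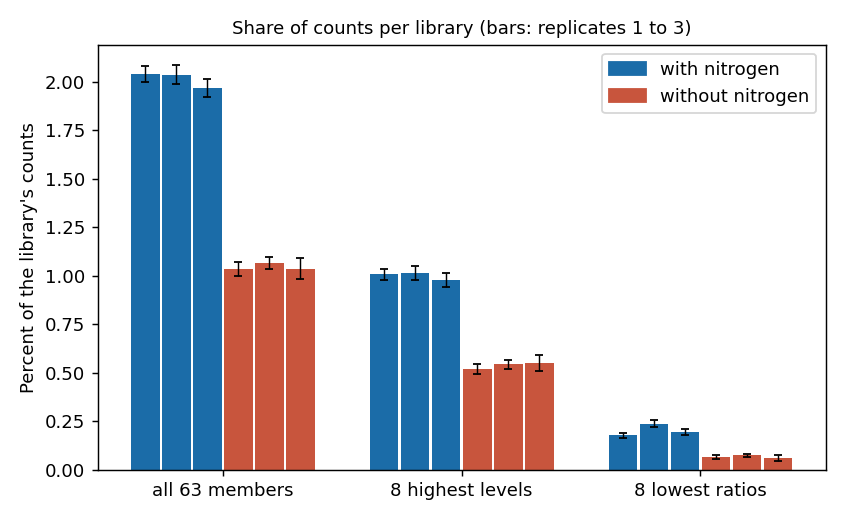
Percent of each library's counts (vertical, from 0) taken by all 63 members, by the 8 with the highest level and by the 8 with the lowest ratio; bars are replicates 1 to 3 with nitrogen (blue) and without (red), and error bars are exact 95% binomial intervals. All members together took 1.97% to 2.04% with nitrogen and 1.03% to 1.07% without.

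The members did not share 1 pattern over the libraries. Without nitrogen, the lowest of the 3 values was in replicate 1 for 21 members, in replicate 2 for 17 and in replicate 3 for 25. These are 33.3%, 27.0% and 39.7% of the members, beside 37.2%, 25.9% and 36.9% of the 2548 genes. The highest of the 3 values was in replicate 1 for 31.7% of the members, in replicate 2 for 44.4% and in replicate 3 for 23.8%, beside 27.4%, 33.4% and 39.2% of the 2548 genes. The rule itself bounds the highest starved value, so these shares are a description. The median member stood at 0.499, 0.533 and 0.473 of its mean with nitrogen in replicates 1, 2 and 3. Relative spread was larger without nitrogen in 41 of the 63 members, and the median SD over mean was 16.6% with nitrogen and 23.1% without. Over all 2548 genes these medians were 15.6% and 18.5%. The part that the lower counts of the starved libraries play in this spread was not tested.

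**Figure D4:**
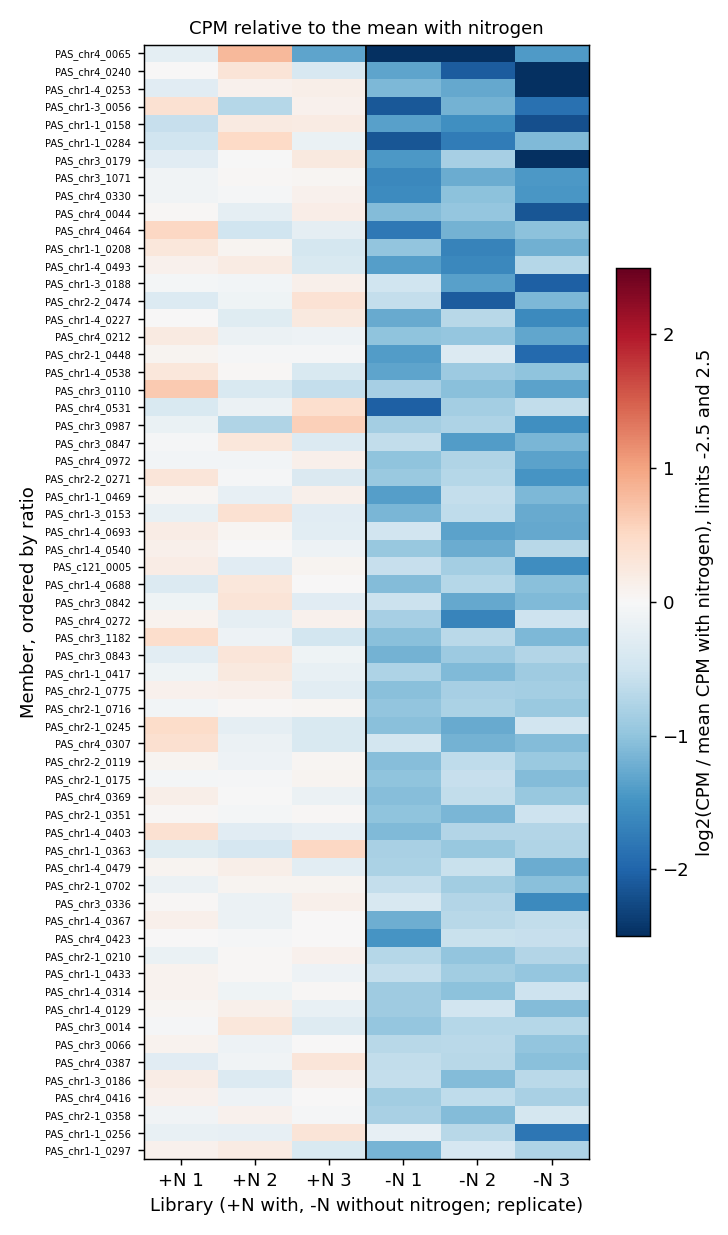
CPM of each of the 63 members (rows, ordered by ratio) in each library (columns, +N with and -N without nitrogen), as log2 of CPM over the member's mean with nitrogen; blue is lower, red is higher, and values beyond 2.5 are drawn at the limit. The 3 right columns are blue throughout, and the darkest cells are at the top, several of them in replicate 3 without nitrogen.

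Members that the naming rule did not single out, 42 in number, had ratios from 0.397 to 0.585 with a median of 0.523. Their mean CPM ran from 67.0 to 677 with nitrogen and from 28.0 to 389 without. Among the more abundant of them, PAS_chr2-1_0351 (chromosome 2, 651824 to 653512) had 582, 556 and 583 CPM with nitrogen and 287, 260.2 and 401 CPM without. PAS_chr4_0972 (chromosome 4, 1033022 to 1033606) had 552, 552 and 626 CPM with nitrogen and 287, 341 and 228 CPM without. The lowest control was 1.39 times the highest starved library in the first gene, near the median of the set, and 1.62 times in the second. By contrast, in PAS_chr3_0987 (chromosome 3, 1907235 to 1908728) the control libraries ranged from 149 to 380.2 CPM and the highest starved library, at 147, was just below them. These 3 genes were picked after their values were seen.

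The edge of the set was not sharp. Just inside the ratio of 0.6 were PAS_chr1-1_0297 (0.595), PAS_chr1-1_0256 (0.593) and PAS_chr2-1_0358 (0.593). PAS_chr1-1_0256 was separated by the narrowest margin of the set, with 95.9 CPM in replicate 2 with nitrogen and 95.8 in replicate 1 without. Just outside, with groups that also did not overlap, were PAS_chr3_0839 (0.603), PAS_chr3_0854 (0.604) and PAS_chr1-1_0198 (0.605). PAS_chr3_0839 had 103, 95.9 and 112 CPM with nitrogen and 72.6, 68.2 and 47.1 CPM without, a wider gap than in any of the 3 just inside. Its lowest control was 1.32 times its highest starved library, against 1.028, 1.001 and 1.283 in PAS_chr1-1_0297, PAS_chr1-1_0256 and PAS_chr2-1_0358. For 49 of the 63 members the upper 95% counting bound of the pooled ratio lay above 0.6, and the highest such bound was 0.936.

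A fit over the whole table gave the same contrast with an error model. The quasi-likelihood test of edgeR, adjusted by Benjamini-Hochberg over 3330 genes, called 89 genes lower without nitrogen (2.67%) at an adjusted p under 0.05. All 63 members were tested and 45 were among the 89, which is 71.4% of the members and 50.6% of the called genes. Because the members were chosen on this contrast, nothing is read from that count. The 18 members without a call had a median of 129 counts over all libraries, against 299 for those with one. The other 44 called genes were left out by the rule mainly for the size of their fall: 41 had a ratio above 0.6, up to 0.783, 2 had groups that overlapped and 1 had fewer than 100 counts.

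Position, strand, length and introns are features the rule did not use, and they are given beside the same values over the 2548 genes. Chromosome 1 held 26 members (3.39% of its genes with at least 100 counts), chromosome 2 held 12 (1.76%), chromosome 3 held 11 (1.803%) and chromosome 4 held 14 (2.85%). The plus strand carried 35 members (55.6%, beside 50.7% of the 2548 genes). Only PAS_chr3_0014, at 31546 to 32607, lay less than 50 kb from either end of a chromosome, the far end being taken as that of the last gene in the table. That was 1.59% of the members, beside 3.73% of the genes. The members were thus spread over all 4 chromosomes.

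The members' gene structures were near those of the 2548 genes. The median coding length was 1251 bp in the set and 1302 bp in the 2548 genes. It ran from 171 bp (PAS_chr1-1_0208, 2 coding exons) to 5004 bp (PAS_chr1-1_0363, 1 coding exon). An intron in the coding sequence was annotated in 7 members (11.1%), beside 11.8% of the genes, and the ratios of these 7 ran from 0.418 to 0.593. None of the 63 members overlapped another annotated gene, beside 46 of the 2548 genes (1.81%). The next gene downstream lay on the opposite strand, facing the member, for 28 members (44.4%, beside 52.4%). The median distance to the next coding region was 359 bp upstream and 186 bp downstream, beside 334 and 155 bp.

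A few members lay close together. Members within 3 gene places of each other formed 3 groups with 7 members in all, and 4 members lay directly beside another one. No matching value for other genes was taken, so whether members lie together more often than other genes was not tested. The largest group spans 7108 bp on chromosome 1. In it PAS_chr1-4_0688 (2392177 to 2393362, 2 coding exons) and PAS_chr1-4_0538 (2393694 to 2395805) follow each other on the plus strand, 331 bp apart, and PAS_chr1-4_0540 (2396972 to 2399284) lies on the minus strand.

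PAS_chr1-4_0538 was the sixth member by level. It had 1085, 909.4 and 692 CPM with nitrogen and 359.9, 478 and 448 CPM without, a ratio of 0.478. PAS_chr1-4_0688 had 126, 195 and 162 CPM with nitrogen and 75.9, 98.5 and 78.6 CPM without, a ratio of 0.523. The controls of these neighbours were not ordered alike, since replicate 1 was the highest in the first and the lowest in the second. For PAS_chr1-4_0540 the mean was 89.0 ± 7.77 CPM in the control libraries and 46.4 ± 8.55 in the starved ones (SD, n = 3 each), a ratio of 0.521. The gene between, PAS_chr1-4_0539, had 17 counts in all and could not enter. The nearest genes beyond the group with at least 100 counts, PAS_chr1-4_0537 and PAS_chr1-4_0543, had ratios of 1.098 and 1.304, so the lower values did not extend to them.

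On chromosome 3, PAS_chr3_0842 (1628960 to 1630621, 1662 bp) and PAS_chr3_0843 (1630786 to 1632468, 1683 bp) lie on the plus strand, 164 bp apart. PAS_chr3_0842 had 234, 314 and 209 CPM with nitrogen and 175, 103.6 and 118 CPM without. PAS_chr3_0843 had 163, 241 and 181 CPM with nitrogen and 85.9, 103.6 and 118 CPM without. Their ratios were nearly equal, 0.523 and 0.525, and in both genes replicate 2 was the highest control. Without nitrogen they were not ordered alike, since replicate 1 was the highest in PAS_chr3_0842 and the lowest in PAS_chr3_0843. The gene before them, PAS_chr3_0841, was far more abundant (2518 ± 103 CPM in the control and 2074 ± 138 in the starved libraries, SD, n = 3 each) and had a ratio of 0.824. PAS_chr3_0839, just outside the set, lies 3 places before the pair, and the member PAS_chr3_0847 (1639837 to 1641312, ratio 0.494) a little after it. PAS_chr3_0846, between the pair and PAS_chr3_0847, had a ratio of 1.093 (126 ± 19.4 CPM in the control and 138 ± 45.9 in the starved libraries), so the low ratios did not run through the stretch, which was noticed after the values were seen.

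The third group, on chromosome 1, holds PAS_chr1-3_0186 (352171 to 353154) and PAS_chr1-3_0188 (354846 to 356198), both on the plus strand. PAS_chr1-3_0186 went from 75.2 ± 13.7 to 44.0 ± 7.58 CPM and PAS_chr1-3_0188 from 97.6 ± 7.28 to 43.6 ± 23.4 CPM (SD, n = 3 each). PAS_chr1-3_0187, which lies between them on the other strand, had 17 counts in all. Over the whole set, the 76 directly flanking genes that were not members and had at least 100 counts had a median ratio of 0.943, beside 0.999 for all 2548 genes. Of these 76, 44 (57.9%) had a ratio below 1, beside 50.2% of the 2548. The edgeR test called 2 of the 76 lower, beside 89 of all 3330 genes tested (2.67%).

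**Figure D5:**
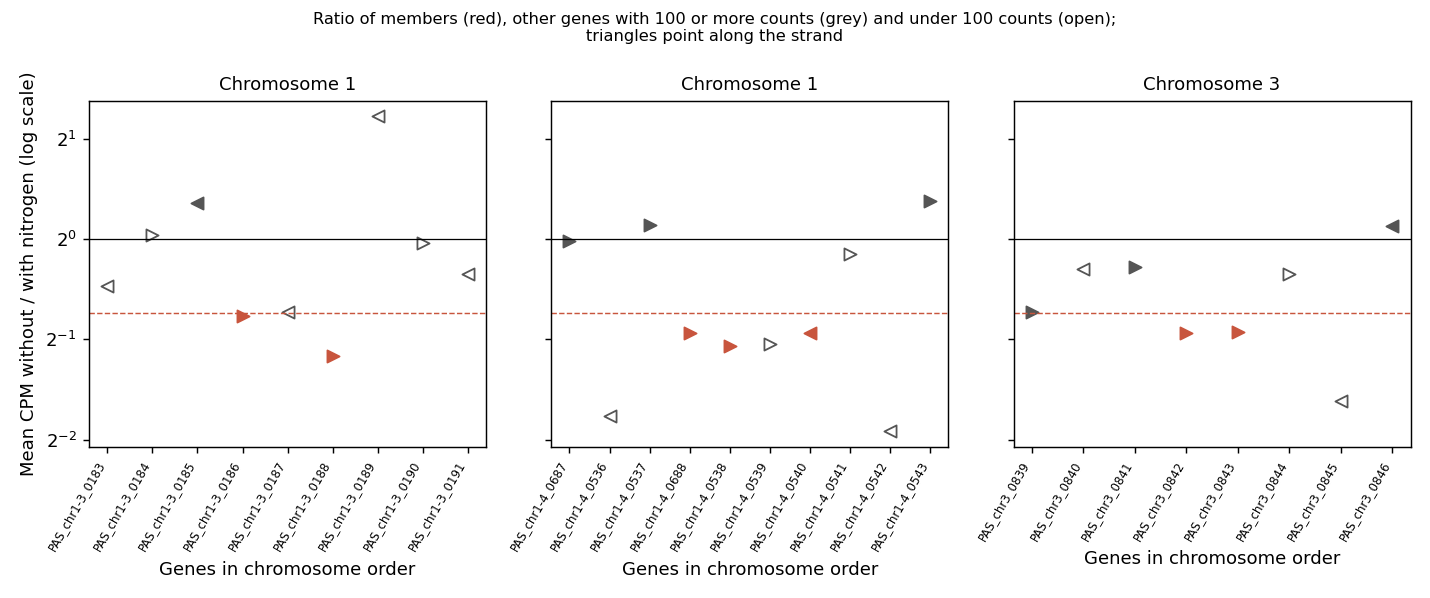
Ratio of mean CPM without to with nitrogen (vertical, log scale) for the genes in and around the 3 groups of nearby members, in chromosome order; members are red, other genes with at least 100 counts grey and genes with fewer counts open, and triangles point along the strand. On chromosome 3 PAS_chr3_0842 and PAS_chr3_0843 lie side by side at 0.523 and 0.525, and PAS_chr3_0839 sits at 0.603, just above the dashed line at 0.6.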

How the data were processed

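For the 6 libraries the authors deposited 1 table of raw read counts per gene. Per the labels' protocols, 300 ng of total RNA per sample went into a QuantSeq forward kit, which reads transcripts close to their 3' end. Per the submitters' processing notes the tools were Trimmomatic, HISAT2 and featureCounts; their versions, the strand setting, the genome build and the handling of multiply matching reads were not given in the sources used here. All 5040 deposited coding lengths are multiples of 3, so fragments wholly in a 3' untranslated region would not be counted. Reads of near-identical genes could have been split by the authors' counting, which could not be checked without sequence. CPM were computed from column sums. edgeR 4.0.16 (R 4.3.3, filterByExpr with minimum count 10, TMM, quasi-likelihood F-test, two-sided) was fitted on the whole table. It was first run on simulated data with 200 changed genes. Those counts were drawn with the dispersions that edgeR fitted to these libraries. That run therefore cannot show whether the error model suits the replicates. SE was computed from the log2 fold change and its F statistic; the prior degrees of freedom, 985, mean that a gene's SE says little about its own libraries. No replicates agreed within sampling noise (chi-square 1.91 to 3.01 for each degree of freedom), so all were kept as separate samples. The members, rules and lists were chosen with earlier results of these data known. Genes named are the 8 members with the lowest ratios, the 8 highest by level and by loss, 3 on each side of the threshold and members side by side. The 15 functional lists go by gene symbol, and none of their symbols could be matched, as the reference gives only locus tags. Members could thus not be looked up in them, and no list is given. Promoters and proteins were not analysed here. Alternatives were DESeq2 1.42.0, limma-voom (limma 3.58.1), other scalings, filters and thresholds, a replicate block and leaving out each library.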

Additional observations from a re-analysis of the deposited data

How the results depend on the processing

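The membership depended on the thresholds. A ratio of 0.5 or less left 25 genes, a minimum of 50 counts gave 101 and a minimum of 200 gave 30. TMM scaling and DESeq2 size factors each gave 63 genes, 62 of them shared. Leaving out 1 library, with the minimum kept over all 6, gave 70 to 97 genes, 53 to 59 of them members. The highest was without replicate 2 without nitrogen (97). With 1 library fewer the groups separate more easily, so these sets tend to be larger whichever library is left out. In all 6 such sets 36 members were kept. Of the members, edgeR called 45 lower, DESeq2 23 of the 27 to which it gave an adjusted p, and the other scaling, limma-voom and filters 30 to 45 (30 with at least 10 counts in every library, which left 30 members to test). Leaving out 1 library gave 31 to 39. With the replicate block 39 members were called. Deviations of same-numbered libraries correlated at -0.067, -0.0321 and -0.0579. No library had its highest correlation with the library of its number, so a shared number was not taken as a pairing. Of all genes tested, edgeR called 89 of 3330 lower, as did the other scaling and limma-voom. DESeq2 called 49 of 1413 and the replicate block 62 of 3330. The unfiltered fit called 72 of 4993, and the fit with at least 10 counts in every library 88 of 2004. With 1 library left out, 48 to 78 of the 3413 to 3524 genes tested were called. The difference in share of counts was -0.969 percentage points, -0.877 without the most abundant member, as that gene's counts are left out, and -0.992 to -0.957 with a library left out. The median ratio of the members ran from 0.506 to 0.536 with a library left out. Of 267 values of named genes under alternatives, 246 kept direction and side of the threshold, 21 lost the call and 0 turned sign. The named genes were chosen with groups that do not overlap, so a change of sign was hardly possible. Genes without a call in the main fit were counted as kept when they stayed without one. These counts are therefore no test of the falls. DESeq2, the unfiltered fit, the block and leaving out a library cost calls; the cause was not tested. The number of counts limits the set: 33 members had fewer than 200 counts.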

Other observations

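Genes with fewer than 100 counts could not enter the set. Of the 2445 such genes with at least 1 count, 125 (5.11%) met its other criteria, with a median of 32 counts over all libraries. Of these 125, 9 had 0 counts in every library without nitrogen. The edgeR test called 1 of the 125 lower (adjusted p under 0.05), beside 89 of all 3330 genes tested (2.67%). How many of the 125 passed the edgeR filter and were tested was not counted, so nothing is read from that call. A further 47 genes had 0 counts in all libraries.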
